A study of Homo sapiens with 6 samples.

Results

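Cells slow protein synthesis under stress by phosphorylating the alpha subunit of eIF2, and the genes that set and release this brake were examined here as a group of 10. They are the eIF2alpha kinases EIF2AK1 (HRI), EIF2AK2 (PKR), EIF2AK3 (PERK) and EIF2AK4 (GCN2), the mitochondrial protease OMA1, the phosphatase regulators PPP1R15A (GADD34) and PPP1R15B (CReP), the alpha subunit itself (EIF2S1), and the delta and epsilon subunits of the exchange factor eIF2B (EIF2B4 and EIF2B5). Members were chosen by gene symbol, and 10 of 10 were found among the 19845 symbols of the count table, with 10 of 10 also among the 11861 genes that passed the filter on low counts. The symbols were chosen with earlier results of these libraries known.

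As background, each kinase senses another stress. HRI responds to lack of heme and to signals from damaged mitochondria, PKR to double-stranded RNA, PERK to unfolded proteins in the endoplasmic reticulum, and GCN2 to uncharged tRNA. OMA1 is activated at the inner mitochondrial membrane and cleaves DELE1, which then reaches the cytosol and binds HRI. Phosphorylated eIF2 holds eIF2B in an inactive state, so that general translation falls while mRNAs with upstream reading frames, such as ATF4, are translated. PPP1R15A and PPP1R15B bring protein phosphatase 1 to eIF2 and end the response. Most of this relay works through protein cleavage and phosphorylation, which RNA-seq does not measure.

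The libraries came from Molm13 cells, a human acute myeloid leukemia line with an MLL rearrangement, which expressed Cas9 and carried an sgRNA delivered by lentivirus in the ipUSEPR vector, under puromycin selection. Of the 6 libraries, 3 carried sgCtrl and 3 carried sgCOX4I1, each with a different guide, and no source used here calls the cultures clones or gives the time after transduction. COX4I1 encodes a subunit of Complex IV, the last enzyme of the respiratory chain. The authors deposited whole-number read counts per gene, with totals from 17241014 to 30861943 per library. Values are given as CPM, the unit edgeR computes from counts and TMM-adjusted library sizes. COX4I1 mRNA was 513, 501 and 462 CPM in sgCtrl #1, #2 and #3, and in sgCOX4I1 #1, #2 and #3 it was 132, 377 and 133 CPM. The sgCOX4I1 #2 library thus kept 76.7% of the sgCtrl mean of this mRNA, and sgCOX4I1 #1 and #3 kept 26.7% and 27.0%. These shares do not give the COX4I1 protein left under each guide, which RNA-seq does not measure. The paper reports reduced COX4I1 protein on immunoblots of cells carrying sgCOX4I1. The edgeR test put the log2 fold change of COX4I1 mRNA at -1.21 (SE 0.29, adjusted p = 0.0512), short of the threshold. Leaving out sgCOX4I1 #2 moved this to -1.89 (adjusted p = 3.37e-06). The myeloid and MLL markers CD33, SPI1, FLT3, MPO, LYZ, CSF3R, MEIS1 and HOXA9 were all among the tested genes, whereas HBB and EPCAM had 0 counts in every library. The summed level of the 8 markers ran from 2242 to 3247 CPM in sgCtrl and from 2935 to 4060 CPM in sgCOX4I1. Of the 8, 1 was called at an adjusted p under 0.05, where 2.08% of all genes tested were called (1.02% lower). That was MPO, the granule peroxidase, with a mean of 227 ± 8.27 CPM in the sgCtrl libraries against 109 ± 6.57 in the sgCOX4I1 libraries (SD, n = 3 each). Its log2 fold change was -1.06 (SE 0.074, adjusted p = 1.6e-05 by the edgeR test), and its p ranked 1 among the 11861 genes tested. Of the 8 markers, 6 lay below 0 and 2 above, and their median was -0.15 on the log2 scale. The higher sum came from LYZ (lysozyme). LYZ, singled out after its values were seen, was 1149, 1520 and 2099 CPM in the sgCtrl libraries and 2025, 3021 and 3103 CPM in the sgCOX4I1 libraries, with overlap and a log2 fold change of 0.77 (SE 0.19, adjusted p = 0.0534). FLT3 and HOXA9 had log2 fold changes of -0.23 and -0.21, with adjusted p-values of 0.190 and 0.236. The part of these markers in the values that follow was not tested, and in bulk samples fewer cells of a type and less RNA per cell cannot be told apart.

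The promoter windows of the members were read first, since ATF4 and related factors act on their own pathway. Windows ran from 250 bases before to 50 bases after each RefSeq start (GRCh38.p14), and 9 of the 10 members have an entry, all but EIF2AK1. Searched on both strands were the C/EBP-ATF response element TGATGNAA, the cAMP response element TGACGTCA and the interferon-stimulated response element, which is GAAA repeated after any 2 bases. Of 35116 windows of the same length, 3.62%, 1.85% and 3.57% hold them. Each was found in 1 member, a different gene each time, printed here as 30 bases of the gene's strand with the match in capitals, and CHAC1, the output gene with the largest rise, is shown for comparison.
PPP1R15B: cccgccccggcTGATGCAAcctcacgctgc
CHAC1: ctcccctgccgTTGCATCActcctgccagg
PPP1R15A: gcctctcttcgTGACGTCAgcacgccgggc
EIF2AK2: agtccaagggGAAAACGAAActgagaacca
The PPP1R15B stretch lies at chr1:204412026-204412055 on the minus strand, with the match from base -227 to base -220 relative to the start. The CHAC1 match, on the other strand of the same element, runs from base -209 to base -202 (chr15:40953251-40953280, plus strand). In PPP1R15A the match runs from base -58 to base -51 (chr19:48872352-48872381, plus strand). In EIF2AK2 it spans the start, from base -6 to base 4 (chr2:37156967-37156996, minus strand). Of the 12 stress response outputs described below, 11 have an entry, of which 4 hold TGATGNAA, 0 hold TGACGTCA and 1 holds the interferon-stimulated response element. The 4 are ATF3, CEBPG, CHAC1 and ASNS, and of these only CHAC1 was called. CEBPG, with the same TGATGCAA as PPP1R15B, had a log2 fold change of -0.020. No TGATGNAA match was found for the other called outputs, SESN2, ATF5, CEBPB and TRIB3. The CHAC1 stretch, picked for its rise, thus does not show that the element goes with a rise. These are matches of letters, not measured binding. The shares of the 35116 windows are per window, whereas members and outputs were counted per gene over all windows of that gene. The shares and the gene counts are therefore not directly comparable.

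None of the 10 members passed the test for a change at the mRNA level. A gene was called where its p from edgeR (quasi-likelihood), adjusted by Benjamini-Hochberg over the 11861 genes, lay under 0.05. By this rule 0 of 10 members were called, where 2.08% of all genes tested were called (1.06% higher and 1.02% lower), and 0.202% were called with a fold of at least 2. An unadjusted p under 0.05 was reached by 1 of 10 members, a higher one, where 17.3% of all genes reached it (8.9% higher and 8.41% lower). An absolute log2 fold change under 0.25 was found for 10 of 10 members and for 78.6% of all genes. The log2 fold changes lay between -0.047 for EIF2B5 and 0.17 for PPP1R15B, with SEs from 0.070 to 0.17. Of the members, 8 lay above 0 and 2 below, with a median log2 fold change of 0.083 against -0.0023 over all genes tested. The members were also viewed library by library. Set against the sgCtrl mean, sgCtrl #1, #2 and #3 had 8, 4 and 5 of the 10 members above it (median log2 deviations 0.073, -0.014 and 0.0028). The sgCOX4I1 libraries #1, #2 and #3 had 7, 7 and 6 above it (0.074, 0.087 and 0.061). Of the sgCtrl libraries, only sgCtrl #1 had a median in the range of the sgCOX4I1 libraries. That mean is taken over the sgCtrl libraries themselves, so their deviations balance around 0 and are no like yardstick for the sgCOX4I1 libraries. The 95% intervals of the 10 fold changes all lay between 0.838 and 1.39, so a 2-fold change lay outside each of them. For scale, the 247 called genes had absolute log2 fold changes from 0.29 to 2.61 with a median of 0.53. DESeq2 and limma-voom also called 0 of 10, with 1 of 10 at an unadjusted p under 0.05 in each.

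**Figure D1:**
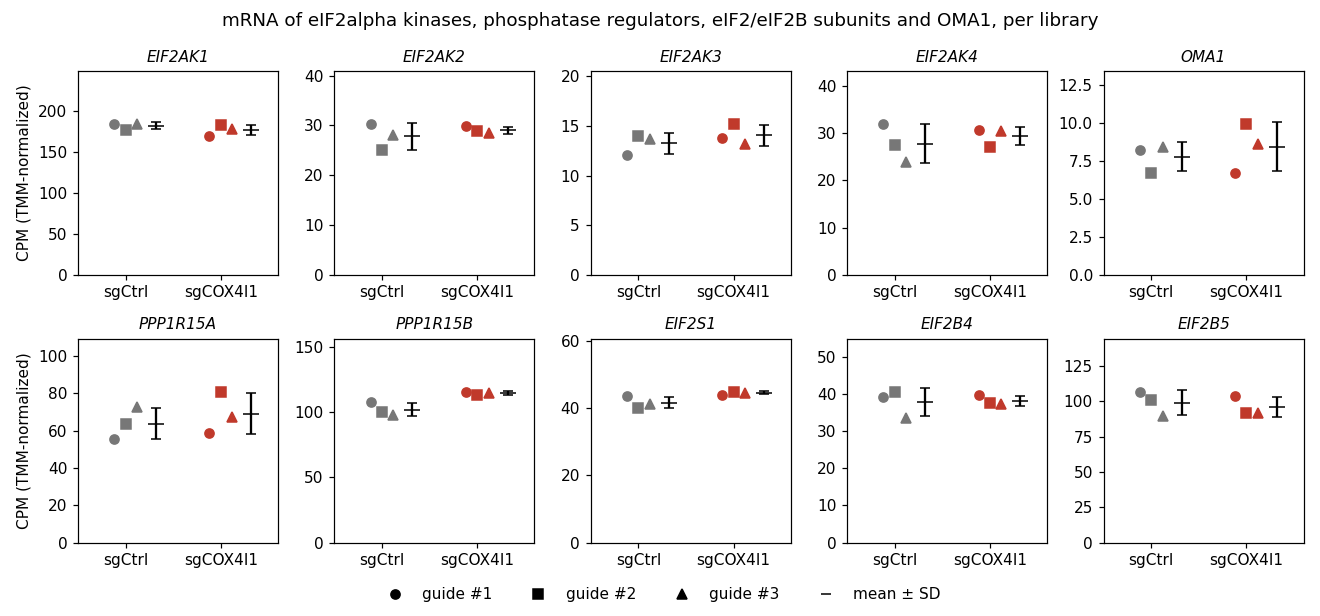
TMM-normalized CPM of each member in the 3 sgCtrl libraries (gray) and the 3 sgCOX4I1 libraries (red), with the symbol marking the guide number and the bar the mean ± SD of each group. The groups overlap in 8 of the 10 panels, and in PPP1R15B and EIF2S1 the 3 sgCOX4I1 libraries lie above the 3 sgCtrl libraries.

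Among the kinases, EIF2AK1, the heme- and mitochondria-linked kinase, had by far the most counts, from 3149 to 5554 per library. Its mRNA was 184, 177 and 184 CPM in sgCtrl #1, #2 and #3, and in sgCOX4I1 #1, #2 and #3 it was 170, 183 and 178 CPM. The groups overlapped, and its SD was 2.32% of the mean in sgCtrl, the smallest of the members there, and 3.78% in sgCOX4I1. The edgeR test gave a log2 fold change of -0.042 (SE 0.070, adjusted p = 0.806), with a 95% interval of 0.876 to 1.08 as a fold. It lies on chromosome 7 from 6022247 to 6059175 on the minus strand of GRCh38, where 9.69% of its exonic bases also belong to the oppositely oriented AIMP2. The library preparation was directional, but whether the counting used strand is not given in the sources used here.

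EIF2AK2, the double-stranded RNA sensor, was 30.34, 24.97 and 27.99 CPM in the 3 sgCtrl libraries and 29.79, 28.94 and 28.39 CPM in the 3 sgCOX4I1 libraries. All sgCOX4I1 values fell inside the sgCtrl range. Its log2 fold change of 0.064 (SE 0.097, adjusted p = 0.785) went to -0.0063 without sgCtrl #2. EIF2AK2 is itself an interferon-stimulated gene, and of 11 other such genes, 9 lay below 0 and 2 above, with a median log2 fold change of -0.31. OAS1, the sensor that makes the activator of RNase L, was the 1 of the 11 that was called, where 1.02% of all genes tested were called lower. It fell from 7.16 ± 1.46 to 3.81 ± 0.730 CPM (SD, n = 3 each), a log2 fold change of -0.91 (SE 0.21, adjusted p = 0.0369 by the edgeR test). OAS1 was called under 8 of 12 alternatives, with adjusted p-values from 0.0045 to 0.239, and lost its call without sgCtrl #2 and without any one of the sgCOX4I1 libraries. Within each library, the ratio of OAS1 to EIF2AK2 counts needs no scaling. It was 0.271, 0.311 and 0.196 in sgCtrl and 0.103, 0.157 and 0.135 in sgCOX4I1, with no overlap (exact permutation test over libraries, two-sided p = 0.1, the lowest that 3 against 3 libraries allow). OAS1 was taken for this ratio because it was called, so the ratio largely repeats that call and is no second test.

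EIF2AK3, the endoplasmic reticulum kinase, had the fewest counts of the 4, from 221 to 411. It was 12.04, 14.004 and 13.70 CPM in sgCtrl, against 13.80, 15.22 and 13.14 CPM in sgCOX4I1, and the groups overlapped. Its log2 fold change was 0.080 (SE 0.12, adjusted p = 0.785). EIF2AK4, the amino acid sensor, was 31.98, 27.41 and 23.92 CPM in sgCtrl, against 30.72, 27.14 and 30.34 CPM in sgCOX4I1. All 3 sgCOX4I1 values lay inside the sgCtrl range, whose SD was 14.6% of the mean, the widest of the 10 in sgCtrl. Its log2 fold change of 0.086 (SE 0.11, adjusted p = 0.745) went to -0.0098 without sgCtrl #3.

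Regulators of the kinases formed a list of 14 genes, all tested. None was called by the edgeR test (2.08% of all genes tested were called). An unadjusted p under 0.05 was reached by 5, all higher (8.9% of all genes tested were higher at that level). Over the 14 genes the median was 0.071 on the log2 scale. HSPA5 (BiP), the chaperone that keeps PERK inactive, was 334, 308 and 318 CPM in sgCtrl, against 402, 407 and 372 CPM in sgCOX4I1. Its groups did not overlap, and its log2 fold change of 0.30 (SE 0.074) had an adjusted p of 0.0560. HSPA8, a constitutive HSP70 chaperone, had a log2 fold change of 0.31 (SE 0.088, adjusted p = 0.0871). HSPA5 passed the threshold under 6 of its 12 alternatives and HSPA8 under 4 of 12.

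OMA1, which starts the mitochondrial relay, was the least counted member, with 123 to 270 reads per library. It was 8.23, 6.68 and 8.40 CPM in sgCtrl #1, #2 and #3, against 6.72, 9.94 and 8.63 CPM in sgCOX4I1 #1, #2 and #3. The groups overlapped, with sgCOX4I1 #2 the highest library and sgCOX4I1 #1 next to the lowest. The SD was 19.2% of the mean in sgCOX4I1, the widest of the 10 in that group, where counting error alone gives 7.61%. The log2 fold change of 0.11 (SE 0.17, adjusted p = 0.787) had the widest interval of the members, 0.838 to 1.39 as a fold, and went to -0.010 without sgCOX4I1 #2. OMA1 lies on chromosome 1 from 58415384 to 58546802 on the minus strand, and 6.91% of its exonic bases also belong to DAB1 on the same strand, and how reads in the shared bases were assigned is not given in the sources used here.

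A list headed OMA1 partners and substrates held 13 genes, all tested. Binding to OMA1 or cleavage by it was not measured here for any of them. Of the 13, 8 lay above 0 and 5 below, with a median log2 fold change of 0.046. DELE1, listed under its older symbol KIAA0141, carries the signal from OMA1 to HRI. It was 88.1, 92.7 and 85.1 CPM in sgCtrl, against 87.4, 80.8 and 92.7 CPM in sgCOX4I1, with overlapping groups and a log2 fold change of -0.025 (SE 0.078, adjusted p = 0.905 by the edgeR test). OPA1, the inner membrane GTPase that OMA1 cleaves, was 97.7, 92.8 and 92.8 CPM in sgCtrl, against 112, 106 and 114 CPM in sgCOX4I1. These groups did not overlap, but its log2 fold change of 0.23 (SE 0.071) had an adjusted p of 0.112 and was not called.

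PARL, a rhomboid protease of the inner mitochondrial membrane, was the 1 gene of these 13 that was called, where 1.02% of all genes tested were called lower. It was 6.21, 5.65 and 6.83 CPM in sgCtrl, against 3.96, 3.43 and 3.04 CPM in sgCOX4I1, so that every sgCOX4I1 library lay below every sgCtrl library. The log2 fold change was -0.85 (SE 0.19, adjusted p = 0.0347 by the edgeR test), and 8 of its 12 alternatives called it, with adjusted p-values from 0.00618 to 0.145. The call was lost without sgCtrl #2, sgCtrl #3, sgCOX4I1 #2 or sgCOX4I1 #3. The ratio of PARL to OMA1 counts was 0.755, 0.846 and 0.813 in sgCtrl and 0.589, 0.345 and 0.352 in sgCOX4I1 (exact permutation test over libraries, two-sided p = 0.1, the lowest possible). PARL was taken for this ratio because it was called, so the ratio largely repeats that call and is no second test. PARL shares 47.2% of its exonic bases with another annotated gene on the same strand, which limits what its counts stand for.

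PPP1R15A, the stress-induced regulator of the eIF2alpha phosphatase, was 55.5, 63.6 and 72.5 CPM in sgCtrl #1, #2 and #3, against 59.0, 81.1 and 67.4 CPM in sgCOX4I1 #1, #2 and #3. The groups overlapped, and the sgCOX4I1 #1 library lay below 2 of the sgCtrl libraries. With 1019 to 2110 counts per library, counting error gives 2.66%, whereas the SD was 13.3% of the mean in sgCtrl and 16.1% in sgCOX4I1. PPP1R15A had a log2 fold change of 0.11 (SE 0.12, adjusted p = 0.679), with a fold interval of 0.908 to 1.29, and it went to -0.013 without sgCOX4I1 #2.

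PPP1R15B, the constitutive regulator of the same phosphatase, was the member with the smallest adjusted p. It was 108, 101 and 97.8 CPM in sgCtrl, against 116, 113 and 115 CPM in sgCOX4I1, with no overlap between groups. Its log2 fold change of 0.17 (SE 0.072) was the largest of the members and had an unadjusted p of 0.0363 and an adjusted p of 0.247 from the edgeR test, so it was not called. Of the members, 2 of 10 did not overlap between groups, both higher, where 21.6% of all genes tested did not (11.3% higher and 10.4% lower). Across its 12 alternatives the log2 fold change stayed between 0.14 and 0.21, and the lowest adjusted p was 0.0661, with the replicate number as a block. The ratio of PPP1R15A to PPP1R15B counts was 0.514, 0.632 and 0.742 in sgCtrl and 0.509, 0.716 and 0.588 in sgCOX4I1, with overlap (two-sided exact permutation test, p = 0.7). Partners of these regulators, the catalytic subunits PPP1CA, PPP1CB and PPP1CC with ACTB, had 0 of 4 genes called by edgeR, where 2.08% of all genes tested were called. An unadjusted p under 0.05 was reached by 0 of 4, where 17.3% of all genes reached it. A list of 4 genes is too short to differ from these shares by such counts. PPP1CA had a log2 fold change of -0.11 (SE 0.072, adjusted p = 0.485) and ACTB one of -0.082 (SE 0.10, adjusted p = 0.734).

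The genes whose pattern over the 6 libraries was most like that of PPP1R15B were UHMK1, MARCH5, RNF141, CS and GMFB. The measure was the root mean square difference of centred log2 CPM, which was 0.014 for UHMK1 and 0.021 for GMFB, where the median over 11860 genes was 0.16. UHMK1, a kinase, was 101, 91.4 and 90.2 CPM in sgCtrl, against 106, 103 and 105 CPM in sgCOX4I1. The log2 fold changes of these 5 genes lay between 0.14 and 0.19, and none was called.

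EIF2S1, the subunit that the 4 kinases phosphorylate, was 43.53, 40.06 and 41.30 CPM in sgCtrl, against 43.99, 44.92 and 44.59 CPM in sgCOX4I1. The groups did not overlap, although the lowest sgCOX4I1 library and the highest sgCtrl library lay close together. EIF2S1 had a log2 fold change of 0.096 (SE 0.079, adjusted p = 0.576), a fold of 1.07 with an interval of 0.950 to 1.20. EIF2B4 was 39.2, 40.7 and 33.5 CPM in sgCtrl, against 39.7, 37.5 and 37.4 CPM in sgCOX4I1. Its values overlapped, and its log2 fold change of 0.015 (SE 0.093, adjusted p = 0.957) went to -0.064 without sgCtrl #3 and to -0.011 without sgCOX4I1 #1. EIF2B5, the catalytic subunit of the exchange factor, was 107, 101 and 89.4 CPM in sgCtrl, against 104, 91.5 and 91.7 CPM in sgCOX4I1. It overlapped as well, with a log2 fold change of -0.047 (SE 0.086, adjusted p = 0.822) that went to 0.011 without sgCtrl #1.

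The other eIF2 and eIF2B subunits, EIF2S2, EIF2S3, EIF2B1, EIF2B2 and EIF2B3, were all tested. By edgeR 0 of 5 were called (2.08% of all genes tested), while 1 of 5 had an unadjusted p under 0.05 (17.3% of all genes tested). That gene was EIF2B3, the gamma subunit, at 24.3, 22.2 and 19.8 CPM in sgCtrl, against 29.3, 26.1 and 27.0 CPM in sgCOX4I1. Its groups did not overlap, and its log2 fold change was 0.32 (SE 0.10, adjusted p = 0.137), with a call at 0.0260 under the replicate block, 1 of its 12 alternatives. The ratio of EIF2B3 to EIF2B5 counts, chosen after these values were seen, was 0.227, 0.221 and 0.221 in sgCtrl and 0.282, 0.286 and 0.294 in sgCOX4I1, with no overlap (exact permutation test over libraries, two-sided p = 0.1, the lowest possible). EIF2S3, the gamma subunit of eIF2, had a log2 fold change of -0.11 (SE 0.088, adjusted p = 0.566), which went to -0.013 without sgCtrl #3. Of 9 eIF2 partners and other start-site factors, 5 lay above 0 and 4 below. None was called by edgeR (2.08% of all genes tested), with 1 of 9 at an unadjusted p under 0.05, where 17.3% of all genes reached it. EIF5, which triggers GTP hydrolysis on eIF2, had a log2 fold change of 0.24 (SE 0.088, adjusted p = 0.186), and EIF5B one of -0.32 (SE 0.15, adjusted p = 0.292). EIF5 was called under the replicate block (adjusted p = 0.0104) and without sgCtrl #1 (adjusted p = 0.0412). EIF5B was called under the replicate block (adjusted p = 0.0195), and its log2 fold change went to -0.076 without sgCtrl #3.

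Levels of the members were compared with each other as CPM per kilobase. With the union of annotated exons as length, EIF2AK1 was highest, at 33.1 ± 0.769 in sgCtrl and 32.2 ± 1.22 in sgCOX4I1 (SD, n = 3 each), a level above that of 90.2% of the genes tested. PPP1R15A followed at 18.6 ± 2.48 and 20.2 ± 3.24, then EIF2B5 at 13.7 ± 1.23 and 13.3 ± 0.982 and PPP1R15B at 10.9 ± 0.563 and 12.3 ± 0.153. EIF2S1 was 7.83 ± 0.330 and 8.36 ± 0.0881 and EIF2B4 7.28 ± 0.728 and 7.35 ± 0.248. At the low end, EIF2AK2 was 2.52 ± 0.244 and 2.63 ± 0.0641, EIF2AK4 2.32 ± 0.337 and 2.45 ± 0.164, OMA1 2.09 ± 0.255 and 2.27 ± 0.435, and EIF2AK3 0.640 ± 0.0511 and 0.679 ± 0.0515. With this length the order was the same in both groups. Over the 6 libraries the ranges overlapped between EIF2B5 and PPP1R15B, between EIF2S1 and EIF2B4, and among EIF2AK2, EIF2AK4 and OMA1, so these neighbours were not separated.

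These levels depended on the length used. The exon union of EIF2AK3 is 20691 bases and its canonical transcript 4536, which raises its level 4.56-fold, to 2.92 ± 0.233 in sgCtrl. EIF2B5 was 2.81-fold higher, at 38.6 ± 3.46 with its canonical transcript, next to EIF2AK1 at 41.2 ± 0.957, and their ranges then overlapped. EIF2B4 was 3.16-fold higher, at 23.0 ± 2.30 in sgCtrl, which placed its mean above that of PPP1R15B at 19.4 ± 1.00, with overlapping ranges. EIF2AK2 rather than EIF2AK3 had the lowest mean with the longest and with the canonical transcript, and with the canonical transcript their ranges overlapped. EIF2AK1 had the highest mean with the union, the longest transcript and the canonical transcript. Of the summed per-kilobase level of the 4 kinases, EIF2AK1 made up 83.9% to 86.6% per library with the exon union and 76.9% to 80.5% with the canonical transcript. Its share was 85.8% ± 0.892 in sgCtrl and 84.8% ± 0.839 in sgCOX4I1 with the exon union (SD, n = 3 each; two-sided exact permutation test, p = 0.3).

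**Figure D2:**
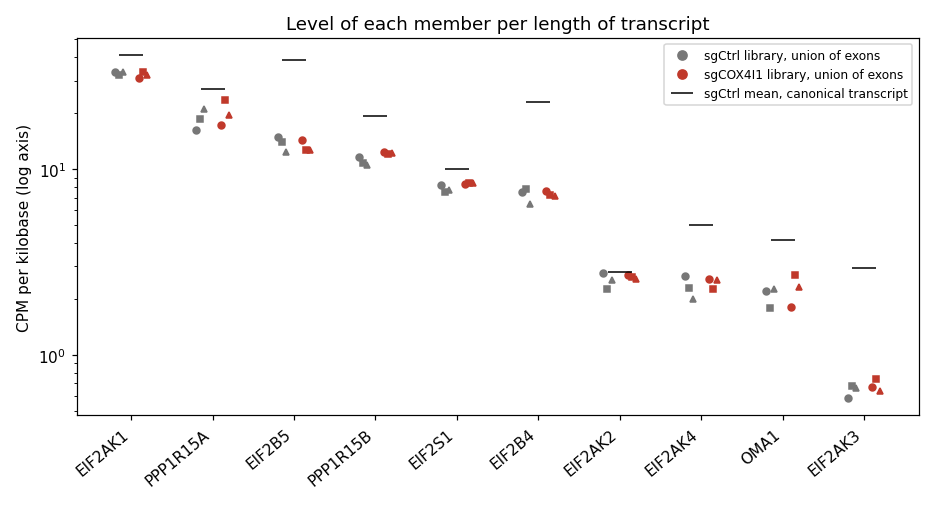
CPM per kilobase of each member on a log axis, with points for the 6 libraries using the union of exons and a dash for the sgCtrl mean using the canonical transcript. EIF2AK1 is highest by both lengths, while EIF2AK3 lies 4.56-fold higher with its canonical transcript.

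Downstream of eIF2, 12 stress response outputs were examined as the readout of the same pathway, and several are known from earlier results of these libraries, so they are no independent support. Of the 12, all tested, 5 were called and all 5 rose, where 1.06% of all genes tested were called higher. Their median log2 fold change of 0.47 stood beside 0.083 for the members. CHAC1, which breaks down glutathione, was 3.27, 3.15 and 2.75 CPM in the sgCtrl libraries and rose to 8.99, 8.31 and 8.63 CPM in the sgCOX4I1 libraries, a log2 fold change of 1.502 with an interval of 1.14 to 1.86. SESN2 and the transcription factor ATF5 each had a log2 fold change of 0.68, CEBPB one of 0.63 and TRIB3, a pseudokinase that inhibits ATF4, one of 0.62. CHAC1, SESN2 and ATF5 were called under 12 of 12 alternatives, and CEBPB and TRIB3 under 9 of 12 each. CEBPB lost its call without sgCtrl #2, sgCOX4I1 #2 or sgCOX4I1 #3, and TRIB3 without sgCtrl #2, sgCOX4I1 #1 or sgCOX4I1 #2.

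ATF4, whose own regulation by eIF2 is at the level of translation, was 634, 601 and 514 CPM in sgCtrl, against 622, 579 and 543 CPM in sgCOX4I1. Its groups overlapped, and its log2 fold change was -0.0035 (SE 0.092, adjusted p = 0.988 by the edgeR test), with an interval of -0.20 to 0.19. DDIT3 (CHOP) was 21.79, 29.96 and 22.25 CPM in sgCtrl, against 32.33, 25.80 and 27.97 CPM in sgCOX4I1, with an adjusted p of 0.409. ATF4, DDIT3, DELE1 and OPA1 are named here for their place in the pathway, after their values were seen.

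**Figure D3:**
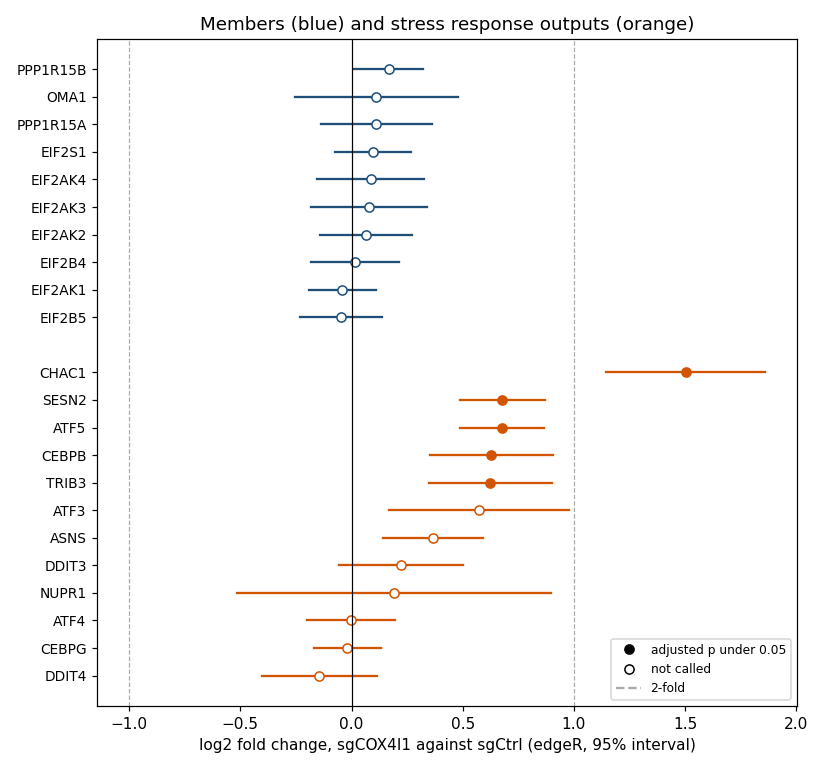
Log2 fold change of sgCOX4I1 against sgCtrl with its 95% interval from edgeR, for the 10 members (blue) and the 12 stress response outputs (orange), with filled points for an adjusted p under 0.05 and dashed lines at 2-fold. The members lie between -0.047 and 0.17 with open points, while CHAC1, SESN2, ATF5, CEBPB and TRIB3 are filled.

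PPP1R15A belongs to both sides, as a regulator of eIF2 and as a target of the response, and was compared with the called outputs within each library. The ratio of CHAC1 to PPP1R15A counts was 0.0589, 0.0495 and 0.0379 in sgCtrl and 0.152, 0.103 and 0.128 in sgCOX4I1. The ratio of ATF5 to PPP1R15A was 0.658, 0.549 and 0.524 in sgCtrl and 0.993, 0.781 and 0.791 in sgCOX4I1. The groups did not overlap for CHAC1, ATF5, SESN2 or CEBPB over PPP1R15A (two-sided exact permutation test, p = 0.1 for each of these, the lowest possible). TRIB3 over PPP1R15A did overlap, at 0.711, 0.486 and 0.378 in sgCtrl and 0.983, 0.554 and 0.707 in sgCOX4I1 (two-sided exact permutation test, p = 0.3). Over the 5 ratios the Benjamini-Hochberg values therefore could not fall under 0.1. The numerators were taken because they were called higher in these same libraries. These ratios therefore largely repeat those calls and are no separate support.

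**Figure D4:**
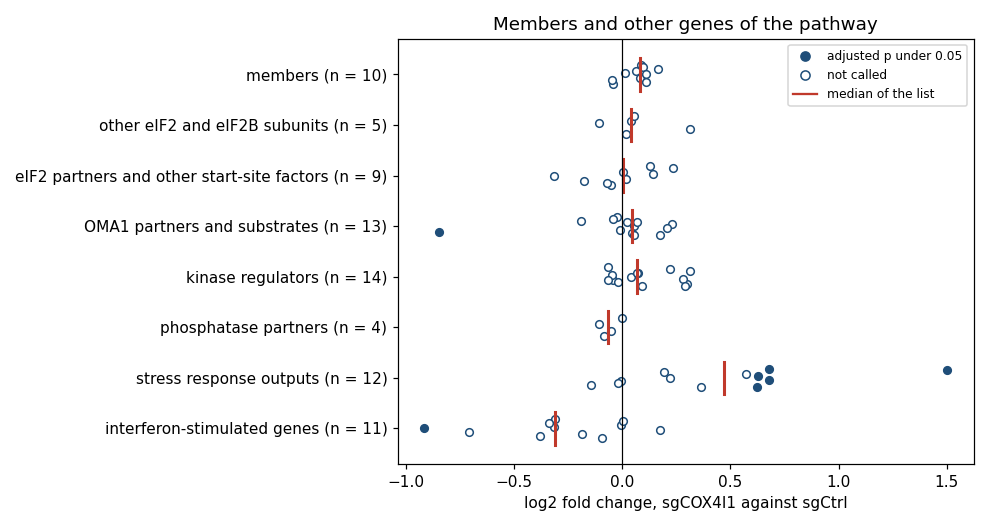
Log2 fold change of sgCOX4I1 against sgCtrl for each tested gene of the members and the 7 other lists, with filled points for an adjusted p under 0.05 and a red line at each list's median. The filled points are the 5 outputs above 0, PARL below 0 in the list headed OMA1 partners and substrates, and OAS1 below 0 among the interferon-stimulated genes.

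Across the 7 lists, 7 of 68 tested genes were called, 5 higher and 2 lower, where 2.08% of all genes tested were called, 1.06% higher and 1.02% lower. These shares of all genes belong to the main fit and are not given for the fits that follow. The count of 7 fell to 3 without sgCtrl #2 and to 3 without sgCOX4I1 #2. It fell to 4 without sgCOX4I1 #3 and rose to 13 without sgCtrl #1. The count of members called was 0 in each of these fits. All count ratios given here were chosen after the values were seen.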

How the data were processed

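RNA was sequenced from 6 Molm13-Cas9 libraries (3 sgCtrl, 3 sgCOX4I1). The authors deposited raw whole-number counts per gene symbol on GRCh38. The methods name Bowtie2 and RSEM, whereas the submitters' processing notes list STAR 2.6.0a, and column names point to marked duplicates and HTSeq. Columns were matched by letter (C control, K knockout) and number, and 0 sample columns were left unused.

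Genes that passed edgeR's expression filter were fitted in R 4.3.3 with edgeR 4.0.16 (TMM, quasi-likelihood test, no covariates, Benjamini-Hochberg). Calls used an adjusted p under 0.05, and 0 members also reached the methods' fold of 2. Log2 CPM used a prior count of 2. Single values used two-sided exact permutation tests over libraries. The 3 libraries of a group carry different guides, and differences between guides are part of their spread. Libraries within a group were further apart than counting noise, with chi-square values of 11.0 to 27.6 times their degrees of freedom. The fit was tested on simulated data.

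Members and lists were chosen with earlier results of these data known. Named genes are the members, COX4I1, up to 5 called genes per list or else the 2 with the smallest p, and the 5 nearest PPP1R15B. Alternatives were DESeq2 1.42.0, limma-voom (limma 3.58.1), no TMM, 2 other count filters, a replicate block, each library left out, and the longest transcript as length. The canonical transcript length was added after seeing the data. Positions and lengths came from GENCODE 44, which matched 18437 of 19845 symbols, and promoters from RefSeq.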

Additional observations from a re-analysis of the deposited data

How the results depend on the processing

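The count of members called was 0 under all 12 alternatives. Leaving out 1 library turned the direction of 6 members, whose log2 fold changes then ran from -0.0063 to 0.13 for EIF2AK2, -0.0098 to 0.20 for EIF2AK4, -0.010 to 0.25 for OMA1, -0.013 to 0.21 for PPP1R15A, -0.064 to 0.071 for EIF2B4 and -0.11 to 0.011 for EIF2B5. EIF2AK1, EIF2AK3, PPP1R15B and EIF2S1 kept their direction under each alternative run. The count of pathway genes called, 7, was 11 with no filter on low counts and 3 to 13 with 1 library left out. The log2 fold change of COX4I1 was -1.205 with no filter (adjusted p = 0.000205), -1.40 by limma-voom (0.0291), and -1.895 to -0.954 with 1 library left out. With the replicate block, 18 pathway genes were called and COX4I1 had -1.39 (adjusted p = 0.000176). The share of all genes called is given for the main fit only, so the counts under the alternatives have no background beside them. Deviations of same-numbered libraries correlated at 0.38, -0.024 and 0.29. Across numbers, sgCtrl #1 with sgCOX4I1 #3 gave -0.32 and sgCtrl #3 with sgCOX4I1 #1 gave -0.38. Numbers #1 and #3 thus each correlated best with their own number, whereas sgCtrl #2 correlated best with sgCOX4I1 #3 (0.064). The numbers are therefore not shown to pair all the libraries, and what same-numbered libraries share was not tested. Lengths other than the exon union moved the per-kilobase level of 8 members (longest transcript) or 10 (canonical transcript) by more than the SD. Except where fewer libraries were fitted, the cause of these shifts was not tested. OMA1 and EIF2AK3, with the fewest counts, have the widest intervals.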
